A study of Mus musculus with 20 samples.

Results

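The cytochrome P450 family was described across mouse lung, brain, heart, skeletal muscle and subcutaneous adipose tissue, in a study titled for sleep apnea and glucose metabolism. Members were the probe sets annotated with a single gene symbol of the form Cyp, family number, subfamily letter and gene number, without Cyp51, and where a gene had more than 1 such probe set, that of highest mean level over the 20 arrays was used. This gave 38 genes of the 8251 genes with a single symbol on the array, represented by 45 probe sets before the choice of one per gene. Another 9 P450 probe sets were left out, 7 of them because their annotation names several genes.

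Glucose and Con, each with and without hypoxia, were the groups of the adipose set, with 2 arrays each. These 8 arrays came from mice of 12 weeks, and the labels name both C57BL-6J and C57BL-6J-Lep animals, the second with a mutation of the leptin gene, without giving the strain of an array or saying what Con and Glucose stand for. All were kept under their exposure for 16 hours a day on 5 days. The hypoxia arrays are labelled with oxygen drops to 5% within 30 seconds, followed by reoxygenation to 20% within another 30 seconds, and the non-hypoxia labels also name intermittent room air. The other 12 arrays, called the panel here, held lung, brain, heart and skeletal muscle of C57BL-6J mice at 20 weeks, with 1 array per tissue for sleep fragmentation, hypoxia and control. The labels do not tie replicate arrays to animals, so adipose p-values measure the spread between arrays, which may be technical. The panel has no replicate arrays. Its p-values are set against the spread left after additive terms for tissue and exposure, which includes exposure effects that differ between tissues.

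P450 enzymes are heme proteins that insert an oxygen atom into their substrates, and most of them take their electrons from P450 oxidoreductase in the endoplasmic reticulum, while a mitochondrial group takes them from adrenodoxin. Families 1 to 3 act mainly on drugs, pollutants and other foreign compounds, family 4 on fatty acids and eicosanoids, and others on bile acids, oxysterols, vitamin D, steroid hormones and retinoic acid. The liver holds most of the foreign-compound enzymes, but some are enriched in the airways, where club cells carry several of them. By these roles the members comprised 22 genes of families 1 to 3, 7 of fatty acid and eicosanoid metabolism, 5 of bile acid, oxysterol and vitamin D metabolism, 3 of steroid hormone synthesis and 1 of retinoic acid breakdown. Cyp2j5 and Cyp2j6, of family 2, were counted with fatty acid and eicosanoid metabolism and not with families 1 to 3.

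The promoters of the 4 genes with the largest lung differences, and of Cyp2e1, whose tissue mean was highest in adipose tissue, are shown because the results below turn on these genes. Each runs from 250 bases before to 50 bases after the gene's start, is written 5′ to 3′ in the direction of transcription, and comes from RefSeq on build GRCm38.p6. Capitals mark the letters of a TATA box (TATAAA) and the core of the xenobiotic response element (GCGTG, which reads CACGC when it lies on the other strand).
Cyp2s1 (chr7:25816476-25816775, - strand): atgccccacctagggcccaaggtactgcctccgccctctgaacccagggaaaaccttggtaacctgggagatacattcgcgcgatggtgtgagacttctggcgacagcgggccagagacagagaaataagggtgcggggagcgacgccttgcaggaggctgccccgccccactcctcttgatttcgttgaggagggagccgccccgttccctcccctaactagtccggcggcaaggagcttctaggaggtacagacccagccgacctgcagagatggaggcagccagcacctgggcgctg
Cyp2f2 (chr7:27119705-27120004, + strand): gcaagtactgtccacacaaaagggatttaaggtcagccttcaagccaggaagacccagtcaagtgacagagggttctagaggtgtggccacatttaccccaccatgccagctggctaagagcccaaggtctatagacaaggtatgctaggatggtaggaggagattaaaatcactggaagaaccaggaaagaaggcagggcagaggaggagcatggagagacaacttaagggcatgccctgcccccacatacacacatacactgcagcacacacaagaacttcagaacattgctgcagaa
Cyp2b10 (chr7:25897408-25897707, + strand): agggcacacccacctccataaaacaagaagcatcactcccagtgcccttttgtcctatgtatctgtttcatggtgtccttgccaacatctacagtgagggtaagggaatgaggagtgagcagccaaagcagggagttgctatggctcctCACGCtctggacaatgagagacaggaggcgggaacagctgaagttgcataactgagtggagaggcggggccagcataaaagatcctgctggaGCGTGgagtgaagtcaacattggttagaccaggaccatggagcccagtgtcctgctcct
Cyp4b1 (chr4:115647672-115647971, - strand): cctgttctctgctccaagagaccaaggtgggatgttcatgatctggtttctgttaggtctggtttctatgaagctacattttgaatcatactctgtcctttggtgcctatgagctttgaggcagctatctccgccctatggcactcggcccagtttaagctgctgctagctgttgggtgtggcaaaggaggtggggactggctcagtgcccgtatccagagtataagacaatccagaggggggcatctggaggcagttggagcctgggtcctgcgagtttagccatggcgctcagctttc
Cyp2e1 (chr7:140763569-140763868, + strand): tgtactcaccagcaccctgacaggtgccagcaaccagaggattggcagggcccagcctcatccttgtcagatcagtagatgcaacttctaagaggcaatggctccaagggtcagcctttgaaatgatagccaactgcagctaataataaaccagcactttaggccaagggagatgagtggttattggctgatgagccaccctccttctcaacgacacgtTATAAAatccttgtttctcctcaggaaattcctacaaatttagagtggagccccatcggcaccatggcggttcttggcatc
Among the 5 promoters, Cyp2b10 held GCGTG at 2 places, Cyp2e1 held TATAAA once, and the other 3 held neither motif. Over the 34 promoters matched to 31 member genes, 16 held TATAAA, against 13.6% of all 32851 promoters in the table, and 4 held GCGTG, against 32.4% of all. CCAAT was in 13 of the 34, against 37.4% of all, and TGTTTAC, a forkhead site, was in 6, against 3.65% of all. All 4 motifs were searched on both strands, no 2 of the capital runs shown overlap, and a match is a description of the sequence alone. Cyp2s1, Cyp2b10, Cyp2b13, Cyp2b9, Cyp2b19, Cyp2a12 and Cyp2f2 follow each other in this order among the members on chromosome 7, with Cyp2e1 next after them on the same chromosome, and Cyp4a14, Cyp4a10 and Cyp4b1 follow each other on chromosome 4.

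Levels are log2 intensities. On the adipose arrays every intensity under an offset of 97.7 was raised to that offset, which gives a floor of 6.61, while the panel arrays had the offset added and were quantile normalized together. Each tissue or treatment was tested with limma across 7453 probe sets, with a Benjamini-Hochberg adjusted p of 0.05 as the threshold, and errors beside differences are standard errors of the fit. Of the members, 17 passed the filter on low levels in adipose tissue, 14 passed in the panel, 10 passed in both and 17 in neither. The panel filter used the highest tissue mean, so a gene high in a single tissue passed through that tissue. Cyp2s1 passed through lung alone, and Cyp7b1, Cyp2d9, Cyp2c29 and Cyp3a13 through muscle alone, so their tests in that tissue are on genes admitted by a high level there, and the adjusted p without any filter is given beside them. The shares of members called are for the same reason a description.

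The labels of the tissues were set against defining markers. All 5 neuron and all 5 glia markers had their highest panel mean in brain, as had 4 of 6 heart muscle markers in heart, 6 of 8 skeletal muscle markers in muscle, and 2 of 3 alveolar markers in lung. The exceptions were Sftpc, Myl2, Actc1, Acta1 and Pvalb, and the club cell marker Scgb1a1. Sftpd had a lung mean of 8.35, under the panel filter of 9.30, and Sftpc was lowest in lung, at 8.23. The mean of 6 heart muscle markers was 10.7 to 11.2 on the lung arrays, against 11.5 to 12.4 in heart. In muscle it was 9.54 to 9.80, and in brain 8.03 to 8.32. Sftpb, an alveolar surfactant protein, was at 12.79, 12.23 and 12.08 in lung (fragmentation, hypoxia, control) and at most 9.12 in the other panel tissues. Scgb1a1 was at 13.04, 8.81 and 8.59 on these lung arrays, and at 9.25, 9.01 and 13.62 on the brain arrays in the same order. The brain hypoxia array had a median intensity of 1480, against 265 to 413 on the other 19 arrays. All 8 adipose arrays held skeletal muscle markers (mean of 8 genes 9.28 to 14.26). This mean was 9.28 on Glucose non-hypoxia number 1 and 12.2 or more on every other adipose array. On the muscle arrays, scaled separately, it was 11.97 to 12.08. The part of these departures in the P450 levels was not tested. On the lung fragmentation and brain control arrays Scgb1a1, and on the muscle control array the liver marker Apoa1, stood apart from the other arrays of the tissue. The lung count of called members, and the panel differences that changed sign, are also given without these 3 arrays.

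**Figure D1:**
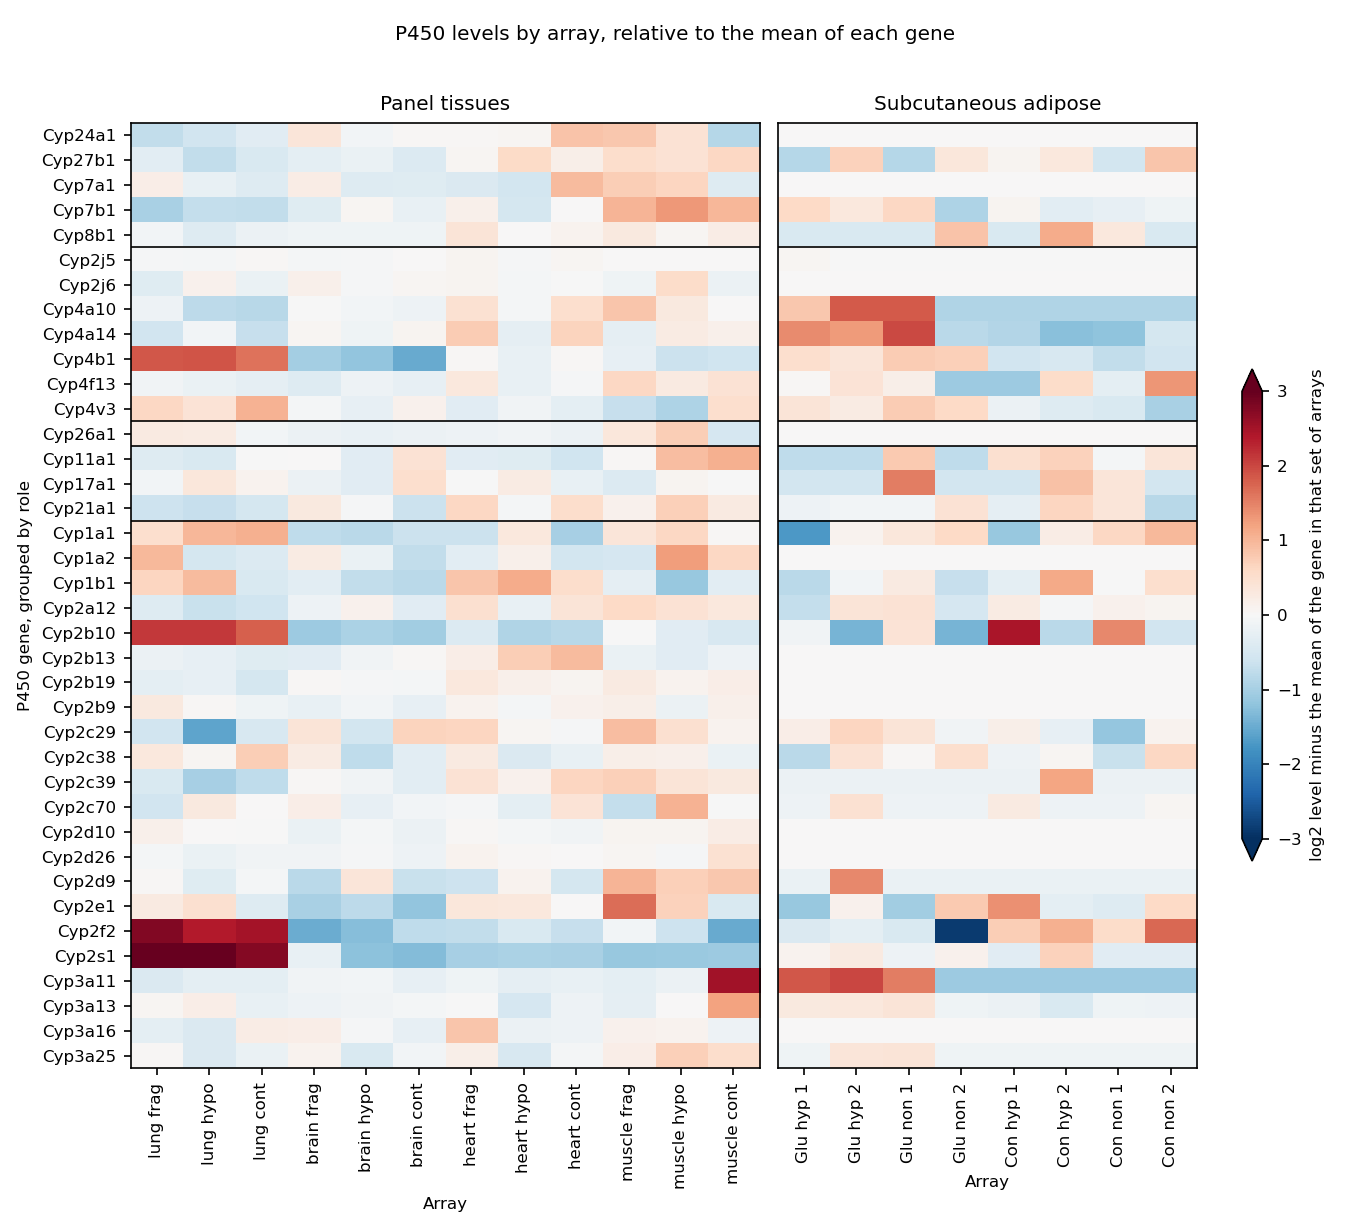
Level of each of the 38 P450 genes on each array, as log2 level minus the gene's mean over the same set of arrays (colour, capped at 3 log2 units), for the 12 panel arrays (left) and the 8 adipose arrays (right). Rows are grouped by role, from top to bottom bile acid, oxysterol and vitamin D, fatty acid and eicosanoid, retinoic acid, steroid hormone synthesis, and families 1 to 3; Cyp2s1, Cyp2f2, Cyp2b10 and Cyp4b1 stand out in lung, and Cyp3a11, Cyp4a10 and Cyp4a14 on 3 of the 4 Glucose arrays.

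Several P450 genes of foreign-compound and fatty acid metabolism were high in lung. Cyp2s1, Cyp2f2, Cyp2b10 and Cyp4b1 were 5.23-fold to 16.0-fold higher in lung than in the mean of brain, heart and muscle, and Cyp4v3 and Cyp2c38 were higher by less. Cyp2c29, Cyp7b1, Cyp2c39, Cyp21a1 and Cyp2a12 were lower in lung. In all, 11 of the 14 tested members passed the threshold, 6 higher and 5 lower, where 62% of all tested probe sets passed (28.1% higher and 33.9% lower). The median difference of the 14 members was 0.09, against -0.11 over all probe sets tested. For 7 of the 14 the lung arrays did not overlap those of any other tissue, against 30.8% of all tested probe sets.

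Cyp2s1 is an extrahepatic enzyme that the aryl hydrocarbon receptor can induce. Its level was 12.05, 11.97 and 11.62 in lung under fragmentation, hypoxia and control, against 8.66, 7.66 and 7.59 in brain, 7.88, 7.93 and 7.90 in heart, and 7.74, 7.76 and 7.79 in muscle. No lung array overlapped another tissue. The lung difference was 4.0 ± 0.19 (16.0-fold, limma adjusted p = 1.77e-07, and 5.67e-07 without the filter that Cyp2s1 passed through lung alone).

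Cyp2f2 is the naphthalene-activating enzyme of mouse club cells. It was at 13.59, 13.20 and 13.31 in lung, against 9.34, 9.53 and 10.05 in brain, 10.07, 10.35 and 10.12 in heart, and 10.73, 10.20 and 9.31 in muscle. The lung arrays lay clear of all others, at a difference of 3.40 ± 0.26 (10.6-fold, limma adjusted p = 3.17e-06). Scgb1a1, at 13.04, 8.81 and 8.59 on these lung arrays, did not follow the level of Cyp2f2.

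Cyp2b10 is the classic target of the constitutive androstane receptor, the sensor of phenobarbital-type inducers. It was at 13.19, 13.20 and 12.86 in lung, against 9.99, 10.13 and 10.02 in brain, 10.66, 10.18 and 10.25 in heart, and 11.07, 10.73 and 10.60 in muscle. Here too lung stood apart from every other array, at 2.68 ± 0.14 (6.39-fold, limma adjusted p = 2.69e-07).

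Cyp4b1 hydroxylates medium-chain fatty acids and activates several lung toxicants. It was at 13.73, 13.77 and 13.49 in lung, against 10.87, 10.68 and 10.35 in brain, 11.91, 11.66 and 11.90 in heart, and 11.63, 11.22 and 11.28 in muscle. Lung was higher by 2.39 ± 0.14 (5.23-fold, limma adjusted p = 5.24e-07), and brain lay below all other tissues. The probe set of Cyp4b1 carries the suffix of a set that can match related sequences.

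These 4 calls passed the threshold under all 18 alternatives run for each, with lung differences of 3.6 to 4.38 for Cyp2s1, 3.24 to 3.52 for Cyp2f2, 2.59 to 2.77 for Cyp2b10 and 2.29 to 2.49 for Cyp4b1. Without the lung fragmentation, brain control and muscle control arrays, an alternative chosen after seeing the data, 10 members passed in lung.

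Cyp4v3, a fatty acid hydroxylase whose human counterpart CYP4V2 is mutated in a retinal dystrophy, was at 10.44, 10.23 and 10.88 in lung, against 8.91 to 10.32 on the other panel arrays. Its lung difference was 0.92 ± 0.21 (limma adjusted p = 0.00357), with overlap of single arrays. Cyp2c38, a member of the arachidonic acid-metabolising 2C subfamily, differed by 0.49 ± 0.20 (limma adjusted p = 0.0495). Its call was lost without any one of the brain control, brain hypoxia, muscle control and muscle fragmentation arrays, the 3 heart arrays, or the lung hypoxia and lung control arrays, and without lung control the difference was 0.25 (limma adjusted p = 0.351). Over all 18 alternatives run, the Cyp2c38 lung call was lost in 13. The probe sets used for Cyp2c38, Cyp4a10 and Cyp4f13 carry the same suffix as that of Cyp4b1, of a set that can match related sequences.

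Among the members lower in lung, Cyp2c29, an arachidonic acid epoxygenase of mouse liver, was at 8.26, 7.27 and 8.35 there, against 8.28 to 9.76 elsewhere, a difference of -1.17 ± 0.24. Cyp7b1, the oxysterol 7-alpha-hydroxylase, was at 8.29, 8.56 and 8.54 in lung, below all other panel arrays (8.74 to 10.56), a difference of -1.07 ± 0.18. This probe set carries the suffix of a set that can match related sequences. The other Cyp7b1 probe set was at 8.24, 8.36 and 7.75 in lung, against 7.69 to 7.83 in heart and 7.72 to 8.5 in muscle, so that lung was not the low tissue on it. Cyp2c39 was at 10.33, 9.77 and 10.02 in lung and at 10.47 to 11.50 elsewhere, a difference of -0.98 ± 0.15. Lung did not overlap the other tissues on the used probe sets of Cyp7b1 and Cyp2c39, and overlapped at its upper edge for Cyp2c29.

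Cyp2a12, a liver enzyme that hydroxylates steroids, was at 9.37, 9.09 and 9.17 in lung and at 9.43 to 10.37 elsewhere, a difference of -0.73 ± 0.17 without overlap. Cyp21a1, the steroid 21-hydroxylase of the adrenal, was at 10.89, 10.81 and 10.99 in lung and at 10.87 to 12.22 elsewhere, a difference of -0.82 ± 0.22 (limma adjusted p = 0.00907). Its probe set, too, carries a suffix of a set that can match other transcripts. The Cyp21a1 call was lost without the lung fragmentation array (limma adjusted p = 0.0567) or without the lung hypoxia array (limma adjusted p = 0.0501).

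**Figure D2:**
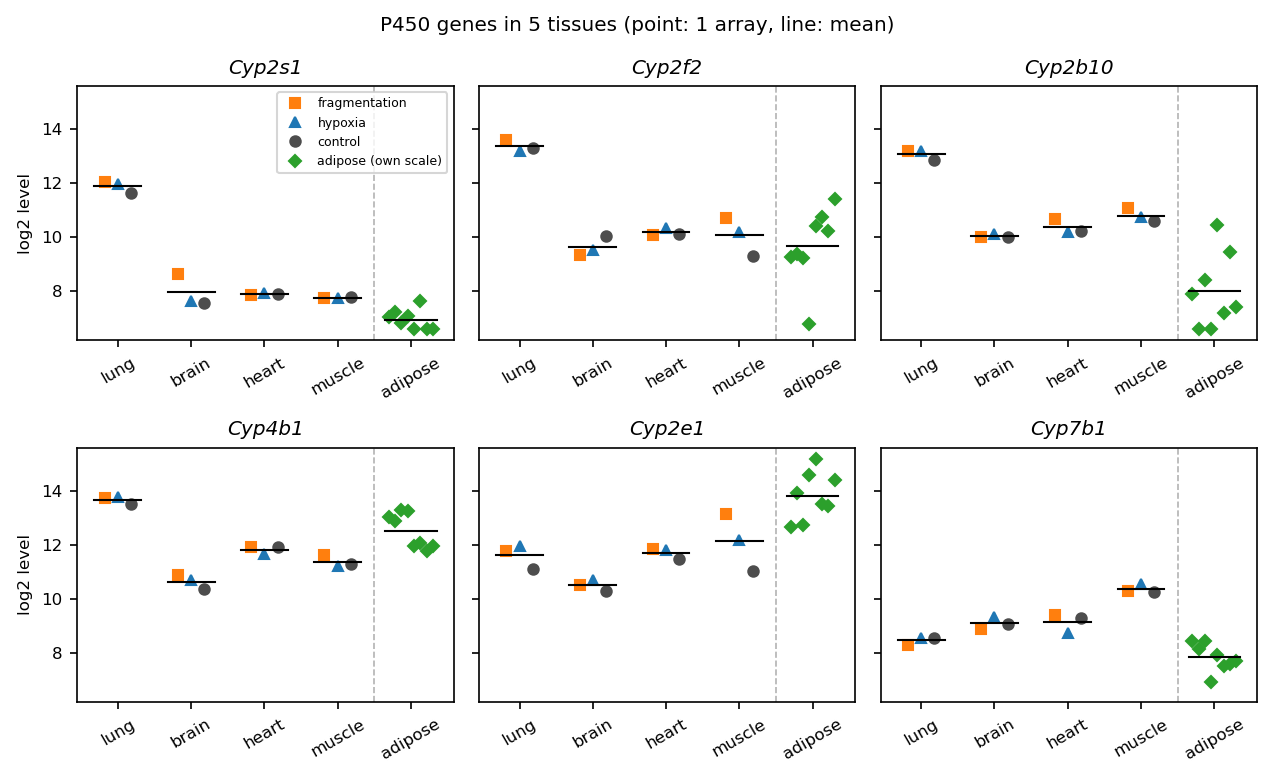
Level (log2) of 6 P450 genes on each array of lung, brain, heart and muscle (squares fragmentation, triangles hypoxia, circles control) and, right of the dashed line and on its own scale, of adipose tissue (diamonds); lines are tissue means. The lung points of Cyp2s1, Cyp2f2, Cyp2b10 and Cyp4b1 lie above all other panel points, Cyp7b1 is highest in muscle and Cyp2e1 in adipose tissue.

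Brain was low in several of the same enzymes. Cyp4b1, Cyp2f2, Cyp2b10, Cyp2e1 and Cyp2s1 were lower in brain than in the mean of the other 3 tissues, and no tested member was higher. These 5 of 14 members compare with 49.5% of all tested probe sets, of which 25.9% were lower and 23.6% higher. Brain arrays did not overlap the others for 3 of the 14, Cyp4b1, Cyp2b10 and Cyp2e1, against 22.9% of all tested probe sets. The differences were -1.66 ± 0.14 for Cyp4b1, -1.57 ± 0.26 for Cyp2f2 and -1.37 ± 0.14 for Cyp2b10. Brain also had the lowest panel mean of these 3. The brain difference of Cyp2s1, -1.21 ± 0.19, is set against a mean that includes lung, and its brain mean of 7.97 was not below those of heart (7.90) and muscle (7.76). Cyp2e1, the ethanol-inducible enzyme, was at 10.50, 10.70 and 10.29 in brain, below every array of lung (11.75, 11.97 and 11.10), heart (11.82, 11.79 and 11.49) and muscle (13.15, 12.18 and 11.03), with a brain difference of -1.31 ± 0.26 (limma adjusted p = 0.0017).

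In heart 4 members passed the threshold, against 38.7% of all tested probe sets (19.2% higher and 19.5% lower). Cyp2c39 was higher, at 11.20, 10.91 and 11.43 in heart (difference 0.53 ± 0.15, limma adjusted p = 0.0169), but overlapped muscle, at 11.50, 11.17 and 11.07. Its call was lost without the heart control array (0.35, limma adjusted p = 0.139). Cyp2s1, Cyp2b10 and Cyp2f2 were lower, by -1.30, -0.94 and -0.85, set against a mean that includes lung. Without the heart control array the number called in heart was 2, and the Cyp2f2 call was lost without any one of the 3 heart arrays or the lung fragmentation array (limma adjusted p of 0.0501 to 0.148). Without the heart hypoxia array 5 members passed, with Cyp21a1 and Cyp2a12 then called higher (limma adjusted p = 0.0357 and 0.0353).

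In muscle 10 members passed, 6 higher and 4 lower, against 52.6% of all tested probe sets (24.9% higher and 27.6% lower). Muscle arrays did not overlap the others for 2 of the 14 tested members, Cyp7b1 and Cyp2d9, against 15.4% of all tested probe sets. Cyp7b1 had the largest positive muscle difference of the members. It was at 10.29, 10.56 and 10.26 in muscle, above all other panel arrays, a difference of 1.47 ± 0.18 (limma adjusted p = 0.0001, and 0.000211 without the filter, which it passed through muscle alone). Another Cyp7b1 probe set did not follow this pattern, with brain at 8.68, 9.0 and 8.71 under fragmentation, hypoxia and control and muscle at 8.5, 7.72 and 7.78. Cyp2d9, a steroid hydroxylase of mouse liver, was at 9.48, 9.19 and 9.29 in muscle, against 7.68 to 8.84 elsewhere, a difference of 1.13 ± 0.24 without overlap (limma adjusted p = 0.00302, and 0.00525 without the filter, which it passed through muscle alone).

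Cyp2e1 was at 13.15, 12.18 and 11.03 in muscle, so that its muscle control array lay below every lung and heart array. The muscle difference was 0.85 ± 0.26 (limma adjusted p = 0.0185), and 0.38 without the muscle fragmentation array (limma adjusted p = 0.133). Cyp2c29, Cyp2c39 and Cyp2a12 were higher in muscle by 0.66, 0.62 and 0.60. Cyp2c29 passed the filter through muscle alone, at a mean of 9.34, and its call was lost without the filter (limma adjusted p = 0.0557). The call was also lost without any one of 8 arrays (brain fragmentation and hypoxia, heart fragmentation and control, lung fragmentation and hypoxia, muscle fragmentation and hypoxia), and its difference was 0.41 without muscle hypoxia (limma adjusted p = 0.258). The Cyp2a12 call was lost without muscle hypoxia (limma adjusted p = 0.0644).

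Cyp2s1, Cyp2f2, Cyp4b1 and Cyp2b10 were lower in muscle, by -1.49, -0.98, -0.66 and -0.36, again against a mean that includes lung. Cyp2f2 lost its call without the muscle control array (-0.55, limma adjusted p = 0.0824). Cyp2b10 lost it without any one of the 3 lung and 3 muscle arrays, brain control, brain hypoxia, heart fragmentation or heart control (limma adjusted p of 0.0576 to 0.166). Over all 18 alternatives run, Cyp2b10 lost its muscle call in 14, with a limma adjusted p of up to 0.219. Cyp4v3, at 9.13, 8.91 and 10.32 in muscle, was not called (-0.50, limma adjusted p = 0.0687), and was called without the muscle control array (-0.85, limma adjusted p = 0.00609) or without heart control (-0.59, limma adjusted p = 0.0287). Cyp3a13, of the drug-metabolising 3A subfamily, was the 1 tested member called in no tissue comparison.

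Several P450 genes were high in adipose tissue. Set beside the panel means without a test, because the 2 sets of arrays were scaled separately, Cyp2e1, Cyp4v3, Cyp1b1 and Cyp2c38 had their highest tissue mean in adipose tissue, also when all 20 arrays were normalized jointly. Under the separate scales 21 members were highest in muscle, 7 in lung, 6 in heart and none in brain. Joint normalization changed this to 13 in muscle and 15 in adipose tissue, so the tissue with the highest mean is uncertain for members near background. On the adipose arrays 11 members were above the floor on all 8, 16 on some, and 11 on none.

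On the adipose arrays Cyp2e1 was at 12.65 and 13.93 (hypoxia) and 12.74 and 14.57 (non-hypoxia) under Glucose, against 15.17 and 13.50 (hypoxia) and 13.42 and 14.40 (non-hypoxia) under Con. The groups overlapped, and the difference of -0.65 ± 0.58 did not pass the threshold (limma adjusted p = 0.554). Single arrays moved it between -0.19 (without Glucose non-hypoxia number 1) and -1.10 (without Glucose non-hypoxia number 2), and it was 0.79 on the s2 arrays alone and -2.08 on the s4 arrays alone, s2 and s4 being codes in the titles. Adipoq, the adipocyte hormone adiponectin, ran beside it, at 13.92, 14.56, 13.70 and 14.99 on the same Glucose arrays and 15.52, 14.48, 14.51 and 14.91 on the Con arrays. In muscle too, the arrays ordered alike, with Cyp2e1 at 13.15, 12.18 and 11.03 and Adipoq at 12.76, 11.69 and 9.26 under fragmentation, hypoxia and control. In bulk tissue fewer cells of a type and less RNA per cell cannot be told apart, and the part of adipocyte content in these levels was not tested.

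**Figure D3:**
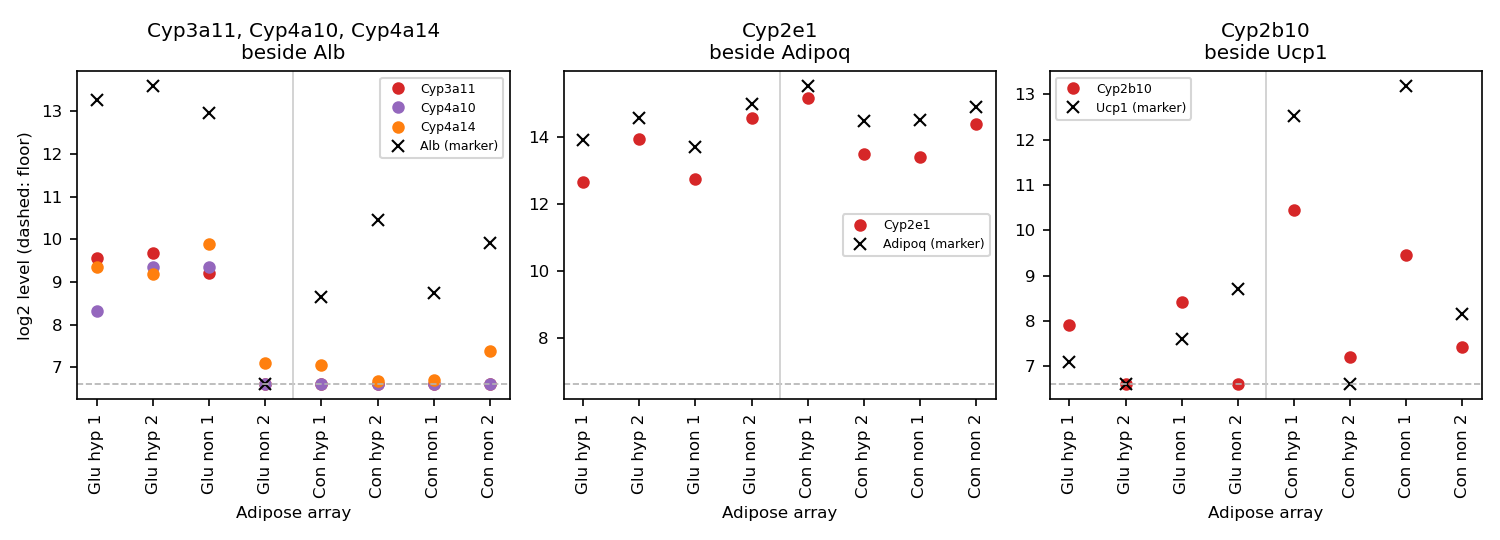
Level (log2) of P450 genes (circles) and of a cell type marker (crosses) on the 8 adipose arrays, Glucose left and Con right of the grey line; hyp is hypoxia, non is non-hypoxia, and the dashed line is the floor at 6.61. Cyp3a11, Cyp4a10 and Cyp4a14 and the hepatocyte marker Alb are high on the same 3 Glucose arrays, Cyp2e1 and Adipoq are both highest on Con hypoxia number 1, and Cyp2b10 and Ucp1 are both highest on the Con arrays numbered 1.

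Levels of Cyp4b1, Cyp4v3 and Cyp3a11 were higher on Glucose than on Con arrays. These 3 of 17 tested members passed the threshold, all higher, against 7.58% of all tested probe sets (4.04% higher and 3.54% lower). Cyp3a11 passed the adipose filter of 7.38 only through its Glucose arrays (mean 8.77, against 6.61 on Con). Its call was lost without the filter (limma adjusted p = 0.202), so the share of members called is a description. At an unadjusted p under 0.05, 6 of the 17 members passed, against 24% of all tested probe sets. The median difference of the 17 members was 0.06, against 0.04 over all probe sets tested, and 9 were positive and 8 negative.

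Markers of other cells moved with the same split. Of the B cell markers, 4 of 5 were lower under Glucose (median -2.33), and their mean level was 9.08, 9.27, 8.73 and 9.09 under Glucose, against 11.52, 11.81, 10.97 and 11.55 under Con. All 3 tested of 5 T cell markers were lower (median -2.64), with a mean of all 5 at 6.61 to 7.18 under Glucose and at 8.45 to 8.91 under Con. Of the brown adipocyte markers, 1 of 4 tested was lower (median -2.77), as was 1 of 6 white adipocyte markers (median -0.50). The 2 groups overlapped on neither lymphocyte mean, and the part of such cells in the P450 differences was not tested.

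Cyp4b1 was at 13.03 and 12.88 (hypoxia) and 13.28 and 13.24 (non-hypoxia) under Glucose, against 11.94 and 12.05 (hypoxia) and 11.78 and 11.96 (non-hypoxia) under Con. The groups did not overlap, as for 19.8% of all tested probe sets, and Glucose was higher by 1.17 ± 0.21 (2.26-fold, limma adjusted p = 0.0179). The call was lost without Con hypoxia number 1, Con non-hypoxia number 1, Glucose hypoxia number 1, Glucose hypoxia number 2 or Glucose non-hypoxia number 1 (limma adjusted p of 0.055 to 0.0899), with differences of 1.13 to 1.21.

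Cyp4v3 was at 12.01 and 11.89 (hypoxia) and 12.40 and 12.23 (non-hypoxia) under Glucose, against 11.45 and 11.25 (hypoxia) and 11.18 and 10.66 (non-hypoxia) under Con. Again the groups did not overlap, with a difference of 1.0 ± 0.23 (2.0-fold, limma adjusted p = 0.0451). Leaving out any one of the 8 arrays ended this call (limma adjusted p of 0.0591 to 0.16), at differences of 0.87 to 1.13.

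Cyp3a11, the main drug-metabolising enzyme of mouse liver, was at 9.56 and 9.68 (hypoxia) and 9.22 and 6.61 (non-hypoxia) under Glucose, against 6.61 on all 4 Con arrays. The fourth Glucose array lay at the floor like every Con array, so the difference of 2.16 ± 0.52 depends on the floor. Its limma adjusted p was 0.0495, and 0.202 without the filter, which Cyp3a11 passed through its Glucose arrays. Cyp4a10 and Cyp4a14, fatty acid omega-hydroxylases that are targets of PPAR-alpha in liver, were high on the same arrays. Their Con means (6.61 and 6.96) lay under the adipose filter of 7.38, so they also passed it through their Glucose arrays (means of 8.41 and 8.89). Cyp4a10 was at 8.33, 9.35, 9.35 and 6.61 under Glucose, in the same order, against 6.61 on all 4 Con arrays (1.80 ± 0.57, limma adjusted p = 0.112). Cyp4a14 was at 9.35, 9.20, 9.90 and 7.11 under Glucose, against 7.05, 6.67, 6.71 and 7.39 under Con (1.93 ± 0.57, limma adjusted p = 0.0928).

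Albumin, the leading hepatocyte product, was at 13.26, 13.59, 12.96 and 6.61 on the same Glucose arrays, against 8.64, 10.45, 8.75 and 9.93 on the Con arrays. The mean of all 5 hepatocyte markers, Alb among them, was 8.95, 8.61, 8.02 and 6.61 under Glucose and 7.17 to 7.43 under Con. On Glucose non-hypoxia number 1, Alb alone lifted this mean above those of the Con arrays. Apoa1 was at the floor on 6 of the 8 arrays. The part of liver RNA in the 3 P450 differences was not tested. The tests of these 3 genes turned on single arrays. Without Glucose non-hypoxia number 2, the 1 Glucose array that went against the pattern, the limma adjusted p was 0.00351 for Cyp3a11, 0.00582 for Cyp4a14 and 0.00963 for Cyp4a10. Cyp3a11 and Cyp4a10 have no spread on the Con arrays, where every value is the floor, so their differences are set against the floor and not against a measured level. Cyp3a11 lost its call without any one of the 4 Con arrays or either Glucose hypoxia array (limma adjusted p of 0.113 to 0.141), and was 1.51 without Glucose non-hypoxia number 1 (limma adjusted p = 0.0244). In the panel, Cyp3a11 was at 9.81 on the muscle control array and at 6.85 to 7.19 on the other 11, and Apoa1 was at 12.24 on that array, against 7.90 and 8.51 on the other muscle arrays.

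Cyp2f2 was the lowest of the members under Glucose relative to Con. It was at 9.27, 9.40, 9.22 and 6.81 under Glucose, against 10.43, 10.75, 10.23 and 11.40 under Con. The groups did not overlap, yet the difference of -2.03 ± 0.54 did not pass (limma adjusted p = 0.068), and it passed without Glucose non-hypoxia number 1 (-2.63, limma adjusted p = 0.0124), with the offset at percentile 30 (-1.86, limma adjusted p = 0.0348) and with an intensity trend (limma adjusted p = 0.0451).

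Cyp2b10 was at 7.91, 6.61, 8.42 and 6.61 under Glucose, against 10.46, 7.21, 9.46 and 7.43 under Con, with the array numbered 1 higher in each of the 4 groups. The difference of -1.25 ± 0.84 did not pass (limma adjusted p = 0.416). It was -0.44 without Con hypoxia number 1 and -2.06 without Con hypoxia number 2, and 0.07 without both Con arrays numbered 1, so no direction is given. Ucp1, the brown adipocyte uncoupling protein, was at 12.52 and 13.18 on the Con arrays numbered 1 and at 8.15 or below on the Con arrays numbered 2, and at 6.61 to 8.72 on the Glucose arrays. The mean of 6 brown adipocyte markers was 11.37 and 11.46 on the Con arrays numbered 1, against 7.96 and 9.03 on those numbered 2. Under Glucose it ran opposite to Cyp2b10, at 7.21 and 7.36 on the arrays numbered 1, against 7.71 and 8.08 on those numbered 2. The part of brown adipocytes in the Cyp2b10 level was not tested. Cyp1b1, which hydroxylates estrogens and activates carcinogens outside the liver, was at 8.48, 9.21, 9.56 and 8.59 under Glucose, against 9.01, 10.44, 9.28 and 9.80 under Con, with overlap (-0.67 ± 0.41, limma adjusted p = 0.372). The other 10 members tested, Cyp2e1 and Cyp1b1 among them, had Glucose differences between -0.67 and 0.57 and limma adjusted p of 0.367 or more.

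Of these, Cyp2c38 was at 9.90 to 11.19 under Glucose and at 10.02 to 11.31 under Con, and Cyp21a1 at 9.74 to 10.33 and 9.06 to 10.53. Cyp2a12 was at 8.33 to 9.49 under Glucose and at 9.02 to 9.31 under Con, and Cyp2c29 at 7.71 to 8.46 and 6.65 to 7.99. All 4 overlapped between the groups. Cyp7b1 was at 6.91 to 8.44 under Glucose and at 7.51 to 7.92 under Con, while its other probe set was at the floor of 6.61 on every adipose array. Cyp27b1, the enzyme that activates vitamin D, was at 6.61 to 8.15 under Glucose and at 6.90 to 8.28 under Con. Cyp4f13, of the leukotriene-hydroxylating 4F subfamily, was at 6.61 to 8.11 under Glucose and at 6.61 to 9.05 under Con, and these 3 overlapped as well.

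**Figure D4:**
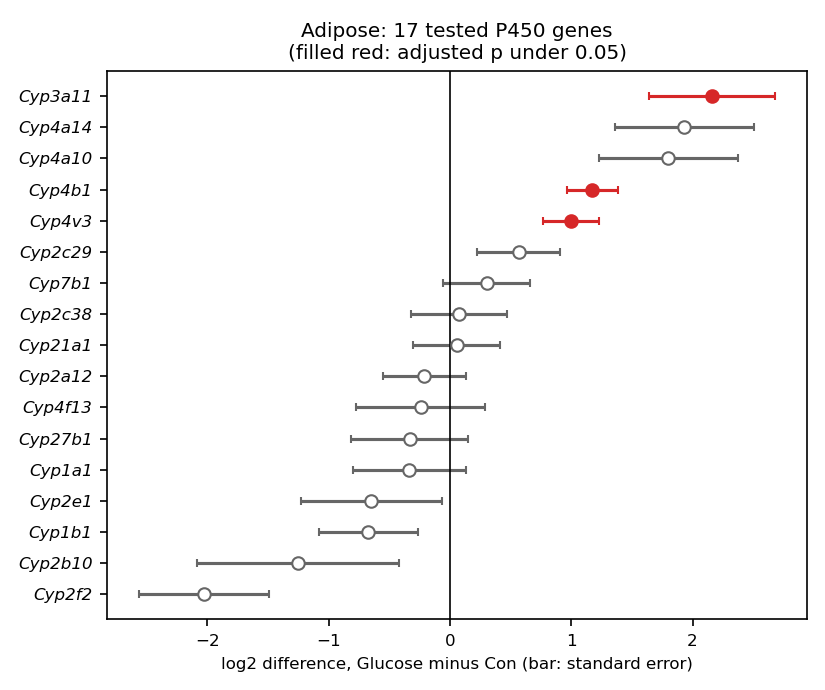
Difference in level (log2, Glucose minus Con, 4 arrays each) of the 17 P450 genes tested in adipose tissue, with the standard error of the fit as bars; filled red points passed an adjusted p of 0.05. Cyp3a11, Cyp4b1 and Cyp4v3 are the filled points at 2.16, 1.17 and 1.0, and Cyp2f2 at -2.03 is the lowest.

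Hypoxia in adipose tissue moved no member past the threshold. With limma, 0 of 17 members and 0% of all tested probe sets passed on average over Glucose and Con, and likewise within Glucose, within Con, and for the difference between these effects. At an unadjusted p under 0.05, 1 of the 17 members passed on average and 0 in each of the other 3 comparisons, against 1.48% of all tested probe sets on average, 2.13% within Glucose, 2.93% within Con and 3.30% for the difference between the effects. That member was Cyp1a1, the best-known target of the aryl hydrocarbon receptor, whose partner ARNT also serves the hypoxia-inducible factors. Under Glucose it was at 6.61 and 8.43 with hypoxia, against 8.67 and 8.93 without. Under Con it was at 7.19 and 8.54 with hypoxia, against 8.95 and 9.30 without. Every hypoxia array lay below every non-hypoxia array, as for 0.443% of all tested probe sets on average over Glucose and Con, at a difference of -1.27 ± 0.47 (unadjusted p = 0.0286, limma adjusted p = 1). The other Cyp1a1 probe set did not follow this pattern and lay near the floor of 6.61. Under Glucose it was at 7.04 and 7.0 with hypoxia, against 6.61 and 6.93 without. Under Con that probe set was at 7.27 and 6.66 with hypoxia, against 6.61 and 6.61 without.

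Cyp3a11 and Cyp2f2 had the largest hypoxia differences within Glucose, 1.71 ± 0.74 and 1.31 ± 0.76, with limma adjusted p of 1 for each. On Glucose non-hypoxia number 2 they stood at 6.61 and 6.81, against 9.22 for each on number 1. Within Con the largest difference was that of Cyp1a1, -1.26 ± 0.66 (limma adjusted p = 1).

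Across the panel tissues, neither exposure moved a member past the threshold. With limma, 0 of 14 members and 0% of all tested probe sets passed for fragmentation against control, for hypoxia against control and for hypoxia against fragmentation. At an unadjusted p under 0.05, 1, 2 and 2 of the 14 members passed, against 4.47%, 5.00% and 10.05% of all tested probe sets. The first pair of comparisons share their control arrays. Cyp2e1 differed by 0.83 ± 0.27 under fragmentation (unadjusted p = 0.0123, limma adjusted p = 0.967) and by 0.68 ± 0.27 under hypoxia (unadjusted p = 0.0312, limma adjusted p = 0.904), and both exposed arrays lay above the control array in all 4 tissues. Cyp4v3 differed by -0.47 ± 0.22 under fragmentation and by -0.57 ± 0.22 under hypoxia (unadjusted p = 0.0626 and 0.0292, limma adjusted p = 0.967 and 0.904). Cyp2c29 and Cyp2c38 were lower under hypoxia than under fragmentation, by -0.74 ± 0.25 and -0.50 ± 0.21 (unadjusted p = 0.0149 and 0.0374, limma adjusted p = 0.461 and 0.475).

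**Figure D5:**
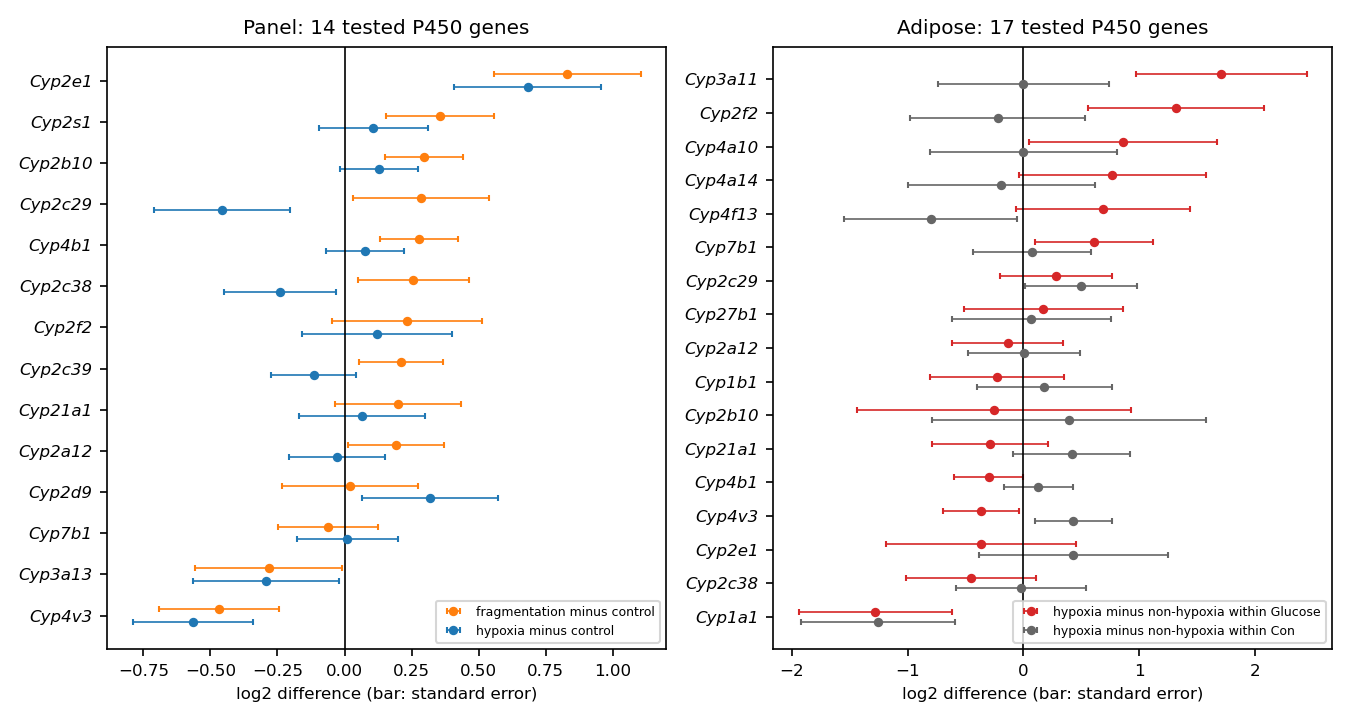
Left, difference in level (log2) of the 14 tested P450 genes across the panel tissues under fragmentation (orange) and hypoxia (blue), each minus the same control arrays; right, hypoxia minus non-hypoxia of the 17 tested genes in adipose tissue within Glucose (red) and within Con (grey). Bars are standard errors, none of the differences passed an adjusted p of 0.05, and Cyp2e1 (0.83 and 0.68) heads the left panel and Cyp1a1 (-1.28 and -1.26) stands at the foot of the right one.

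Within a single panel tissue there was 1 array per exposure and no test. In lung, brain and heart none of the 9 members above the filter was 2-fold or more apart from control under either exposure, against 0.875% (fragmentation) and 2.04% (hypoxia) of all probe sets in lung, 2.81% and 5.34% in brain, and 2.52% and 3.62% in heart. In lung, Cyp2e1 had the largest positive differences, 0.65 under fragmentation and 0.87 under hypoxia, while Cyp2c38 (-0.42 and -0.66) and Cyp4v3 (-0.44 and -0.65) had the largest negative ones. In brain, Cyp21a1 was at 0.94 and 0.60 above control and Cyp2f2 at -0.71 and -0.52. In heart, Cyp2c38 was at 0.49 under fragmentation, and Cyp2a12 and Cyp21a1 at -0.61 and -0.60 under hypoxia.

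In muscle, 4 of the 13 members above the filter were 2-fold or more apart from control under fragmentation, 2 higher and 2 lower, against 5.66% of all probe sets. Under hypoxia 3 were, 1 higher and 2 lower, against 4.07%. Cyp2e1 was 2.12 and 1.16 above control, and Cyp2f2 was 1.41 and 0.89 above it. Cyp3a13 was at 8.76 and 9.05 under fragmentation and hypoxia, against 10.24 in control, and Cyp4v3 was at 9.13 and 8.91, against 10.32. Of the muscle arrays, only control had these 2 genes above the filter of 9.30, so that array alone admitted them to the 13. The shares of members 2-fold apart are therefore a description. In all these comparisons the control array is the one with raised Cyp3a11 and Apoa1 and the lowest Adipoq of the muscle arrays.

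Genes that work with the P450 enzymes were described from lists by role. Of all tested probe sets, the shares that passed were 28.1% higher and 33.9% lower in lung, 23.6% higher and 25.9% lower in brain, and 4.04% higher and 3.54% lower under Glucose. Of 6 redox partners, 5 were higher and 1 lower in lung than in the other panel tissues. Cyb5r3, the cytochrome b5 reductase, was higher by 2.47 ± 0.22, Pgrmc1, a heme-binding partner, by 1.98 ± 0.23, and Cyb5a, cytochrome b5, by 1.18 ± 0.17. Pgrmc2 was at -0.43 ± 0.14. The list's median was 0.98, against -0.11 over all probe sets tested. Under Glucose, 1 of the 6 passed, Cyb5b, the mitochondrial outer membrane form, at 1.55 ± 0.24 (limma adjusted p = 0.0104).

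Of 11 tested enzymes of other phase 1 and phase 2 reactions, 8 were higher and 1 lower in lung (median 1.34), and 8 were lower and none higher in brain (median -1.52, against -0.08 over all probe sets tested). The carboxylesterase Ces1d and the epoxide hydrolase Ephx1 led in lung, by 3.74 ± 0.19 and 3.63 ± 0.16, and Ephx2, the soluble epoxide hydrolase, was at -1.17 ± 0.15. Under Glucose, Gsta3, a glutathione transferase, was higher by 1.47 ± 0.23, and Ces1d was at -1.54 ± 0.25, the 2 of 10 that passed.

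Of 11 heme enzymes, 2 were higher and 5 lower in lung (median -0.21), where 28.1% and 33.9% of all tested probe sets were. The higher ones were the aminolevulinate synthases Alas2 (2.81 ± 0.27), the erythroid form, and Alas1 (1.41 ± 0.24). Fech, which inserts iron into heme, and Blvra, which reduces biliverdin, were among the lower ones in lung, at -0.69 and -0.71, and were the 2 of 11 higher under Glucose, at 1.17 ± 0.24 and 1.83 ± 0.27. Of the aryl hydrocarbon receptor pathway, 5 of 8 genes on the array were tested in the panel. Ahr, the receptor, was higher in lung by 2.55 ± 0.27, Nfe2l2 by 1.37 ± 0.14 and Aldh3a1 by 0.96 ± 0.27, while Nqo1 was at -1.10 ± 0.17. None of its 4 tested genes passed under Glucose.

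Of 8 tested nuclear receptors and partners, 2 were higher and 3 lower in lung. Nr1i3, the constitutive androstane receptor, was at -0.89 ± 0.12 and Ppara at -1.01 ± 0.13. Rxrb was the 1 of 8 that passed under Glucose, at 2.53 ± 0.60 (limma adjusted p = 0.0457). Of 6 tested steroid and sterol partners, 4 were higher in lung, led by Hsd11b1, which regenerates active glucocorticoid (2.20 ± 0.18), and 1 was lower, Star (-1.06 ± 0.17); the sulfotransferase Sult1a1 is counted in this list and among the phase 1 and phase 2 enzymes. None of 8 passed under Glucose. No gene of these lists passed under hypoxia in adipose tissue or under either exposure in the panel.

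Another 7 members were tested in adipose tissue and not in the panel, where every tissue mean lay under the filter of 9.30. Cyp1a1 was at 8.76, 9.26 and 9.32 in lung under fragmentation, hypoxia and control, against 7.46 to 7.63 in brain, 7.26 to 8.58 in heart and 8.29 to 8.89 in muscle. Cyp1b1 was at 9.04, 9.34 and 7.94 in lung, 7.60 to 8.10 in brain, 8.92 to 9.52 in heart and 7.28 to 8.12 in muscle. Lung and heart arrays of Cyp1b1 overlapped, and the brain arrays of Cyp1a1 lay below those of lung and muscle. Cyp4a10, Cyp4a14, Cyp4f13, Cyp27b1 and Cyp3a11 are the others. Another Cyp4f13 probe set was at 9.24, 9.35 and 8.94 in lung and at 7.99 or less elsewhere in the panel, while the one used here lay between 7.46 and 8.47 on all 12 arrays.

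The remaining 17 members were tested in neither fit. They were the families 1 to 3 genes Cyp1a2, Cyp2b9, Cyp2b13, Cyp2b19, Cyp2c70, Cyp2d10, Cyp2d26, Cyp3a16 and Cyp3a25, the bile acid and vitamin D genes Cyp7a1, Cyp8b1 and Cyp24a1, the epoxygenases Cyp2j5 and Cyp2j6, the steroid genes Cyp11a1 and Cyp17a1, and Cyp26a1. Their levels lay between 6.69 and 9.41 on the panel arrays and reached 8.69 on the adipose arrays. Of the 17, all but Cyp2c70, Cyp2j5, Cyp3a25, Cyp8b1, Cyp11a1 and Cyp17a1 were at the floor on all 8 adipose arrays. Cyp7a1, the rate-limiting enzyme of bile acid synthesis in liver, was at the floor on every adipose array and at 7.12 to 8.63 in the panel. Cyp2b13, Cyp2b9 and Cyp2b19, the neighbours of Cyp2b10, were at the floor on all 8 adipose arrays and at 7.14 to 8.44 in the panel.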

How the data were processed

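Gene expression was measured on 20 short-oligonucleotide arrays of 12488 probe sets, 66 of them controls left out here. The deposited values are linear intensity values from the authors, 1 per probe set and array. The labels do not say how probes were summarised and scaled, and arrays give no count of molecules, so the number of arrays limits the precision. Of the 12422 other probe sets, 10833 have 1 gene symbol in the platform annotation, 396 several and 1193 none.

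An offset of 97.7 (percentile 20 of positive values) was used before log2, as a floor on adipose arrays, which hold values at or below 0, and added on panel arrays, which were then quantile normalized. Probe sets above percentile 40 of the mean level (panel: of the highest tissue mean) were kept. Tests used lmFit and eBayes of limma 3.58.1 in R 4.3.3 and were two-sided. The adipose fit had 4 group means, and the panel fit had tissue and exposure as additive terms, so it tests exposure effects shared by the tissues. The fits were tested on simulated data. The members, lists and comparisons were chosen with earlier results of these data known. Values per array are printed for members called in a comparison, for up to 5 with the smallest p where a direction has fewer than 5, and for the 3 highest and lowest within a tissue, shortened to ranges or differences where they overlap.

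Same-numbered arrays were checked for pairing. The correlation of their deviations was 0.41 within Glucose and 0.18 within Con, and -0.14 to -0.05 between Glucose and Con, so the numbers were not taken as pairs. Alternatives were other offsets, normalizations and filters, an intensity trend, blocks for the number and for the s code in the titles, and leaving out arrays.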

Additional observations from a re-analysis of the deposited data

How the results depend on the processing

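The lung, brain and muscle counts of called members and the counts of 0 for every exposure stayed within 1.5 times the reported count under each alternative run. Among the differences of named members, 84 values lost their call and 10 gained one. No called difference changed its sign. Of 113 differences examined, 34 not past the threshold did so in at least 1 alternative, and they are given at the end. The Glucose count of 3 was less stable. It was 1 with the offset at percentile 10, 1 with the replicate block (the array number as an additive term, used although the numbers were not taken as pairs), and 1 with the s code as a term, and it was 0 without both Con arrays numbered 1, 0 on the s2 arrays alone and 0 on the s4 arrays alone. With the replicate block Cyp4b1 kept its call (adjusted p = 0.035), while Cyp4v3 and Cyp3a11 lost theirs (adjusted p = 0.0572 and 0.0586). Leaving out single arrays gave 0 to 4 members. Another scaling (quantile for adipose, median for the panel) shifted the median difference of all probe sets by 0.03 or less, and the genes of the partner lists were not recomputed. The heart count was 2 to 5 when single arrays were left out, and 2 without the heart control array. With all 20 arrays normalized jointly, 13 members were highest in muscle and 15 in adipose tissue. The block gave 0 members for hypoxia in adipose tissue. The cause of these changes was not tested, beyond fewer arrays where arrays were left out. Values near the floor or under the panel filter bound what can be measured, and with 1 array per tissue and exposure the panel has no replicate of an exposure within a tissue.

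For Glucose against Con, Cyp2b10 was 0.07 without both Con arrays numbered 1 and Cyp2e1 was 0.79 on the s2 arrays alone. Leaving out single arrays gave -0.79 to 0.12 for Cyp1a1. For hypoxia averaged over Glucose and Con, such ranges were -0.06 to 1.15 for Cyp2f2, -0.04 to 0.72 for Cyp7b1, -0.26 to 1.11 for Cyp4a10, -0.56 to 0.09 for Cyp2c38, -0.34 to 0.21 for Cyp2a12 and -0.47 to 0.35 for Cyp4f13. On the s4 arrays alone, Cyp2c29 was -0.06, Cyp2f2 -0.47 and Cyp4a10 -0.51, and on the s2 arrays alone, Cyp2c38 was 0.33, Cyp2a12 0.36 and Cyp4f13 1.17. Cyp4f13 was 0.14 with the offset at percentile 10. Cyp2c29 was -0.04 without both Con arrays numbered 1. Within Con, the ranges were -0.14 to 1.13 for Cyp2c29, -0.18 to 1.01 for Cyp21a1, -0.40 to 1.26 for Cyp2e1, -1.62 to 0.02 for Cyp4f13, -0.81 to 0.36 for Cyp2f2, -0.53 to 0.15 for Cyp4a14 and -0.67 to 0.62 for Cyp2c38. Without both Con arrays numbered 1, Cyp2c29 was -0.36 and Cyp2e1 -0.89 there, and Cyp4a14 was 0.00 with the offset at percentile 30. Within Glucose, the ranges were -0.15 to 1.37 for Cyp7b1, -0.51 to 2.23 for Cyp4a10, -0.63 to 2.16 for Cyp4a14 and -1.06 to 0.16 for Cyp2c38. For the difference between the hypoxia effects they were -0.44 to 2.36 for Cyp4a14, -0.51 to 2.23 for Cyp4a10, -1.71 to 0.12 for Cyp2e1 and -1.08 to 0.22 for Cyp2c38, and without both Con arrays numbered 1 Cyp2e1 was 0.53 and Cyp2c38 0.12.

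In the panel, Cyp2c29 in brain ran from -0.08 to 0.43 when single arrays were left out. Under fragmentation, Cyp3a13 ran from -0.50 to 0.07 and Cyp7b1 from -0.22 to 0.01. Under hypoxia, Cyp4b1 ran from -0.00 to 0.17, Cyp2s1 from -0.01 to 0.24, Cyp3a13 from -0.51 to 0.06 and Cyp2c39 from -0.20 to 0.02. For hypoxia against fragmentation, Cyp7b1 ran from -0.03 to 0.29. Without the brain control, lung fragmentation and muscle control arrays, Cyp2c29 in brain was -0.09, Cyp2c39 and Cyp3a13 under fragmentation were -0.16 and 0.12, and Cyp4b1 and Cyp3a13 under hypoxia were -0.01 and 0.12.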
